A study of Mus musculus with 8 samples.

Results

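Jointly skipped multi-exon cassettes are runs of at least 2 neighbouring exons that some transcripts of a gene keep and others leave out as a block. The deposited tables list each such run as an ON row, the transcripts that carry all inner exons, and an OFF row, the transcripts that join the flanking exons directly. ON and OFF rows were paired by chromosome, strand and identical outer splice coordinates, and a pair was kept where both rows were listed in at least 6 of the 8 samples and the mean of ON plus OFF was at least 2 FPKM. FPKM is the number of sequenced fragments of a transcript, scaled to its length and to the mapped fragments of the sample. This gave 525 cassettes in 464 genes, out of 3176 outer splice pairs listed in any sample and 123166 distinct events of 20 types in the whole series. The values that chose the members were the listing of both rows and the mean summed FPKM over all 8 samples, with no regard to group. The mean sum was under 2 FPKM in the WT group for 16 members and in the MG53-TG group for 14, and these passed only through the other group, so a difference of their row levels was partly built in. Just inside the FPKM limit lay cassettes of Hacl1, Uspl1 and Elmod3 at 2.02, 2.03 and 2.06 FPKM, and just outside it those of Fam193b, Dcun1d2 and Ccdc122 at 1.94, 1.94 and 1.95 FPKM. Another 102 cassettes above 2 FPKM had both rows in 5 samples and were left out. Inclusion was ON/(ON + OFF) in percent, with an absent row taken as 0, and no member lacked both rows in any sample.

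RNA sequencing was performed on mouse intestinal crypt organoids, epithelial cultures grown in Matrigel from isolated crypts. The 4 WT samples and 4 MG53-TG samples differed in genotype, the latter overexpressing MG53, a TRIM family E3 ligase, throughout the body. The labels give wt and mg53-tg, whereas the text of the study also speaks of organoids from MG53;Lgr5 and Lgr5 mice, and no source used here says whether the samples of a group came from separate animals or cultures. The p-values below therefore measure only the spread between these samples. Trim72, the gene of MG53, had no transcription end row in any WT sample and 16.4, 27.4, 31.9 and 36.5 FPKM in MG53-TG samples 1 to 4, while its transcription start row was also missing in MG53-TG sample 2. All 17 epithelial markers averaged at least 1 FPKM in both groups, and their sum ranged from 2343 to 2630 FPKM in WT and from 2590 to 3549 FPKM in MG53-TG samples. Marker values were summed from transcription start rows, which can be missing in single samples. Krt8 stood at 0 FPKM in WT samples 2 and 3 and in MG53-TG samples 2, 3 and 4, so its MG53-TG mean came from sample 1. Of 7 immune markers, 3 were listed and their sum was 3.77 to 9.15 FPKM in WT and 0.609 to 1.47 FPKM in MG53-TG samples, mostly Cd68. Of 7 mesenchymal markers 3 were listed, with a sum of 2.27 to 3.24 and 0.991 to 2.46 FPKM, and none of the 3 endothelial markers was listed. Within the epithelium, the enterocyte marker Krt20 ran from 15.9 to 22.6 FPKM in WT and from 76.8 to 198 FPKM in MG53-TG samples, and the stem cell marker Olfm4 from 153 to 292 and from 0.948 to 57.7 FPKM. In MG53-TG samples 3 and 4 Olfm4 stood at 6.07 and 0.948 FPKM, against 50.1 and 57.7 FPKM in samples 1 and 2. The part of these cell type differences in the results was not tested, and in bulk samples fewer cells of a type and less RNA per cell cannot be told apart. The depth of the libraries is unknown, since the files hold FPKM and not counts.

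Exon skipping is carried out by the spliceosome when it passes over the splice sites of an exon and joins the next ones downstream. Where neighbouring exons are passed over together, the protein gains or loses a contiguous segment, and the reading frame is kept if the joint length is a multiple of the codon length. In epithelia such choices are known to be set by splicing regulators of the ESRP, RBFOX, MBNL and hnRNP families, and they are common in genes of the cytoskeleton, of vesicle traffic and of signalling adaptors.

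The inner exons of 7 cassettes are printed from the GENCODE transcripts of GRCm38, 5′ to 3′ on the coding strand, with capitals marking every second exon so that the inner exon boundary can be seen. Exon lengths in the text follow rising genomic coordinates, so for genes on the - strand their order is the reverse of the printed one. The segments of Myo6, Stxbp5, Plekha1, Wnk2 and Itgb3bp are shown as the shorter and wholly coding examples among the 10 largest differences without overlap, that of Lgals4 because it belongs to the most abundant members, and that of Sec31a, chosen after its values were seen, because it shows a neighbouring pair of exons in a secretory coat gene.
Myo6, chr9:80293527-80296681, + strand, 96 bases: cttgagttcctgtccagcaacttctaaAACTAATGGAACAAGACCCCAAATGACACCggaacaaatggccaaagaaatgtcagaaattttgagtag
Stxbp5, chr10:9784188-9784400, - strand, 108 bases: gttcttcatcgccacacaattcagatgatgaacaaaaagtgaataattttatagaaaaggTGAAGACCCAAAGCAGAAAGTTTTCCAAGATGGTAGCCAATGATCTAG
Plekha1, chr7:130885403-130892278, + strand, 144 bases: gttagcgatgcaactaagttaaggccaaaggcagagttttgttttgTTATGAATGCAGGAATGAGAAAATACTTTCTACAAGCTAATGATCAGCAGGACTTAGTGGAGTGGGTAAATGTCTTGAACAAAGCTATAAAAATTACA
Wnk2, chr13:49044374-49050582, - strand, 144 bases: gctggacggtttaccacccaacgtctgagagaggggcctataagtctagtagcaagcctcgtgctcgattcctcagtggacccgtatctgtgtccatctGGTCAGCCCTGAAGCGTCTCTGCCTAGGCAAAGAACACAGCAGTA
Itgb3bp, chr4:99798696-99802232, - strand, 203 bases: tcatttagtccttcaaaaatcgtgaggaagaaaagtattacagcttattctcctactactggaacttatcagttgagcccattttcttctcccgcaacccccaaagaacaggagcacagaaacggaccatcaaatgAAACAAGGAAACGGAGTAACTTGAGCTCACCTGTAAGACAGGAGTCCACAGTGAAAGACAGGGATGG
Lgals4, chr7:28840262-28840452, + strand, 72 bases: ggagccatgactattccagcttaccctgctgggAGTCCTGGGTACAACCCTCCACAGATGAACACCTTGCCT
Sec31a, chr5:100388534-100389106, - strand, 117 bases: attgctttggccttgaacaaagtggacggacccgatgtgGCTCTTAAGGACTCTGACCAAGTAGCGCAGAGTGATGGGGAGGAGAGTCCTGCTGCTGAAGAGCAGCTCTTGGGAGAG
All 7 segments lie wholly in coding sequence of an annotated transcript. Those of Myo6, Plekha1, Wnk2, Stxbp5, Sec31a and Lgals4 add 32, 48, 48, 36, 39 and 24 codons, whereas the 203 bases of Itgb3bp are not a multiple of 3. In Plekha1 neither exon keeps the frame on its own, with 46 and 98 bases, and only their joint skipping does.

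The members are next described by exon number, length and annotation. The rule admits only runs of at least 2 exons, so a longer skipped length than in single-exon cassettes follows from it in part. Of the 525 cassettes, 434 skipped 2 exons, 47 skipped 3 and 44 skipped more, up to 46 exons in Mgam. The skipped length had a median of 236 bases (quartiles 172 and 327), against 104 bases for the 3971 single-exon cassettes that passed the same filter. The flanking splice sites were annotated for all 525, the direct skipping junction for 518 (98.7%) and the complete run of inner exons for 503 (95.8%). Among single-exon cassettes the matching shares were 99.8%, 98.2% and 97.8%, so such annotation was not particular to the members. The inner exons were wholly coding in 379 cassettes, partly coding in 77 and non-coding or not annotated as a run in 69. Of the 379 coding cassettes 229 (60.4%) had a joint length divisible by 3, compared with 1467 of 2645 coding single-exon cassettes (55.5%). In 106 of these 229 every exon was a multiple of 3, and in 94 no single exon was. Other runs of exons between the same outer splice sites existed for 202 members and were summed, and 294 also had a single-exon form there.

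Most members were included nearly all the time. Mean inclusion over the 8 samples was above 95% for 298 cassettes (56.8%), between 20% and 80% for 88 and at most 5% for 28. Among single-exon cassettes 34.5% were above 95% and 12.9% at most 5%. Median inclusion of the members was 98.0%, 98.7%, 98.7% and 97.9% in WT samples 1 to 4 and 98.0%, 98.4%, 98.5% and 98.3% in MG53-TG samples 1 to 4, so the groups overlapped. The number of cassettes with inclusion under 50% was 112, 103, 106 and 110 in the WT and 96, 104, 88 and 91 in the MG53-TG samples, where MG53-TG sample 2 lay within the WT range.

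**Figure D1:**
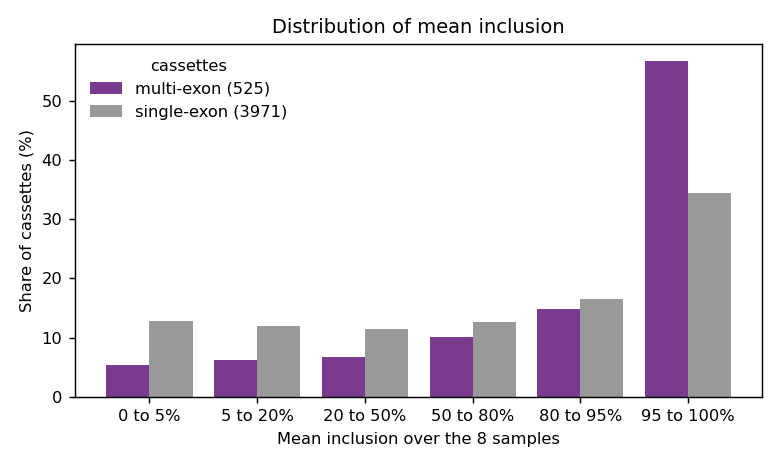
Share of cassettes (%) by mean inclusion over the 8 samples, for the 525 multi-exon (purple) and 3971 single-exon cassettes (grey). The class above 95% holds 56.8% of the multi-exon and 34.5% of the single-exon cassettes.

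The comparison of MG53-TG with WT organoids asked which exon blocks were used differently. No multi-exon cassette passed the test of inclusion: limma on the arcsine of the square root of inclusion, fitted over all 4496 cassettes, called 0 of 525 at an adjusted p of at most 0.05, where 0.245% of all cassettes were called. The lowest adjusted p among members was 0.113, for Myo6. At an unadjusted limma p under 0.05 there were 43 members (8.19%), against 8.43% of all cassettes. Inclusion was higher in MG53-TG samples for 264 members and lower for 261, with a median difference of 0.000488 percentage points, and it differed by at most 5 points in 70.5% of them. The groups did not overlap for 50 members (9.52%), of which 28 were higher and 22 lower in MG53-TG samples. Over all cassettes 7.92% did not overlap, 3.78% higher and 4.14% lower. Of the 50, 26 differed by at most 5 points and 19 by more than 10 points. Differences of more than 20 points were seen in 44 members, of which 30 had overlapping groups.

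The spread between samples was wide where inclusion was intermediate. Among the 88 cassettes with mean inclusion between 20% and 80%, the median SD between samples was 16.7 points in WT and 19.8 points in MG53-TG organoids, and the median absolute difference between the group means was 14.1 points. A 33 and 78 base pair of exons in Dnm1l, the GTPase of mitochondrial fission, was included at 55.7%, 99.7%, 99.7% and 87.1% in WT and at 0.0175%, 0%, 99.8% and 32.7% in MG53-TG samples. Its means differed by -52.4 points, yet MG53-TG sample 3 reached the highest value of all (limma adjusted p = 0.658).

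**Figure D2:**
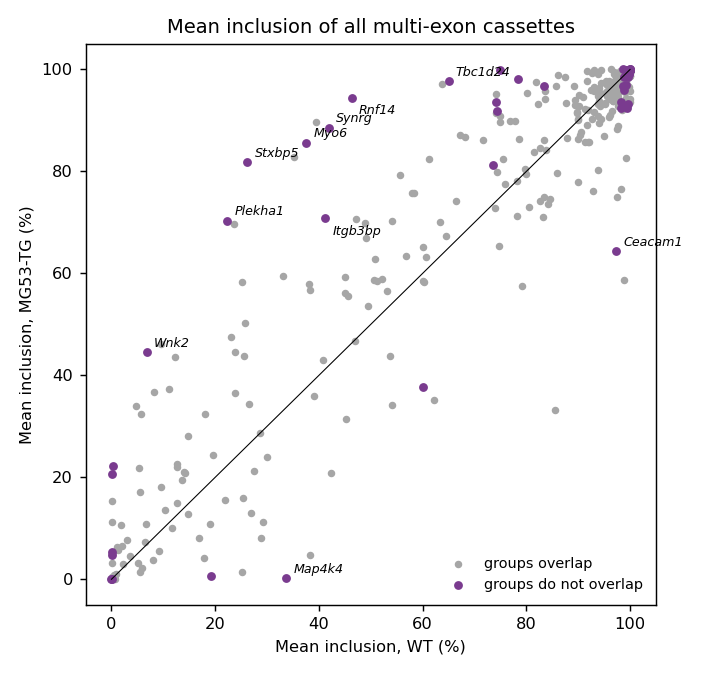
Mean inclusion (%) in MG53-TG (vertical axis) against WT organoids (horizontal axis) for all 525 multi-exon cassettes, with the line of equal inclusion. Purple points are the 50 cassettes whose groups do not overlap, and the 10 of them with the largest differences are named by gene.

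The 10 largest differences without overlap are given next, by the role of the gene. Since absence of overlap chose them, their two-sided exact permutation p of 0.0286, the smallest that 70 relabellings allow, follows from the choice and adds nothing. In 8 of the 10 inclusion was higher in MG53-TG organoids.

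Myo6 encodes myosin VI, the actin motor that walks towards the minus end and works in endocytosis and at the base of microvilli. The block of 27, 30 and 39 bases shown above was included at 53.7%, 26.5%, 41.1% and 29.1% in WT samples 1 to 4 and at 84.7%, 71.2%, 92.7% and 93.9% in MG53-TG samples 1 to 4. Every MG53-TG sample lay above every WT sample, with means of 37.6% ± 12.5 and 85.6% ± 10.4 (SD, n = 4 each; limma adjusted p = 0.113). Its ON row was at 18.6, 5.36, 13.2 and 9.57 FPKM in WT and 20.7, 31.0, 31.1 and 28.6 FPKM in MG53-TG samples, and its OFF row at 16.0, 14.9, 18.9 and 23.4 against 3.74, 12.5, 2.46 and 1.86 FPKM. The ON row rose (log2 fold change of FPKM + 1 of 1.29, limma adjusted p = 0.0374), a call kept in 3 of the 8 fits without 1 sample, those without WT sample 1 or 2 or MG53-TG sample 1. The OFF row had a log2 fold change of -1.92 that missed the threshold (adjusted p = 0.0656), and the sum of both gave 0.14 (adjusted p = 0.672). A second Myo6 member holds the same 27 and 30 base exons, has nearly the same ON FPKM and joins the 39 base exon when they are skipped. Its inclusion was 66.4% to 83.6% in WT and 67.1% to 100% in MG53-TG samples, which overlapped (difference 15.9 points, limma adjusted p = 0.617).

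Synrg encodes gamma-synergin, a partner of the AP-1 clathrin adaptor. Its exons of 303 and 234 bases (chr11:83985249-83987047, + strand) were included at 33.2%, 40.5%, 50.5% and 43.4% in WT and at 96.9%, 72.5%, 87.3% and 97.7% in MG53-TG samples. The MG53-TG values all lay above the WT values, at 88.6% ± 11.7 against 41.9% ± 7.17 (SD, n = 4 each; limma adjusted p = 0.135), and without MG53-TG sample 2 the difference was 52.1 points with an adjusted p of 0.0394. The ON row was low in both groups, at 0.876 to 2.13 and 0.412 to 2.04 FPKM (log2 fold change -0.37, adjusted p = 0.463). The OFF row fell, from 2.82, 1.29, 2.09 and 2.35 to 0.0140, 0.774, 0.192 and 0.00959 FPKM (log2 fold change -1.35, limma adjusted p = 0.0338), but this call held in only 2 of the 8 fits without 1 sample, those without WT sample 2 or MG53-TG sample 2 (adjusted p 0.0251 to 0.0974 over the 8). The cassette passed the FPKM filter through the WT group, with mean sums of 3.69 and 1.30 FPKM. When single-exon forms between the same outer sites were counted in the total, the difference was 22.2 points, and with 0.5 FPKM added to each row it was 23.2 points.

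Stxbp5 encodes tomosyn, a syntaxin-binding protein that restrains vesicle fusion. The block of 48 and 60 bases was included at 25.3%, 55.9%, 14.4% and 9.23% in WT and at 74.1%, 90.7%, 100% and 62.5% in MG53-TG samples. WT sample 2 came closest to the MG53-TG range, and the means of 26.2% ± 20.9 and 81.8% ± 16.7 (SD, n = 4 each) gave the largest difference of the 10, 55.6 points (limma adjusted p = 0.334). The OFF row fell from 2.49, 1.94, 2.97 and 2.98 to 0.593, 0.15, 0 and 0.924 FPKM (log2 fold change -1.38, limma adjusted p = 0.0358), a call that held in 1 of the 8 fits without 1 sample, the one without MG53-TG sample 4 (adjusted p 0.0388 to 0.0926). Here too the mean sum of 3.62 FPKM in WT passed the filter and that of 1.83 FPKM in MG53-TG samples did not, while the ON row, at 0.303 to 2.46 and 0.965 to 1.69 FPKM, gave 0.35 (adjusted p = 0.494). A longer member of the gene that also takes in a 51 base exon overlapped between the groups, with a difference of 20.8 points (adjusted p = 0.725).

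Tbc1d24 encodes a TBC domain protein of vesicle traffic, and its cassette of 18 and 1084 bases (chr17:24184381-24186287, - strand) is partly coding. Inclusion was 95.2%, 44.4%, 88.2% and 32.3% in WT and 98.0%, 95.7%, 99.0% and 98.2% in MG53-TG samples, a difference of 32.7 points that rested on WT samples 2 and 4 (limma adjusted p = 0.542). The cassette passed the FPKM filter only through the MG53-TG group (mean sums 1.83 and 6.57 FPKM), so the WT shares rest on low values. The files list this locus under the gene Ntn3, so its assignment is uncertain. Plekha1 encodes TAPP1, a PH domain adaptor that binds phosphoinositides. Its 46 and 98 base exons were included at 19.4%, 20.2%, 28.2% and 21.4% in WT and at 76.9%, 100%, 37.6% and 66.8% in MG53-TG samples. The WT samples were close together (22.3% ± 4.03) and the MG53-TG samples far apart (70.3% ± 25.9, SD, n = 4 each; limma adjusted p = 0.415). The ON row of Plekha1 rose from 2.61, 2.64, 3.58 and 3.28 to 12.3, 23.2, 7.40 and 14.7 FPKM (log2 fold change 1.84, limma adjusted p = 0.00847), and the OFF row gave -1.28 (adjusted p = 0.402).

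**Figure D3:**
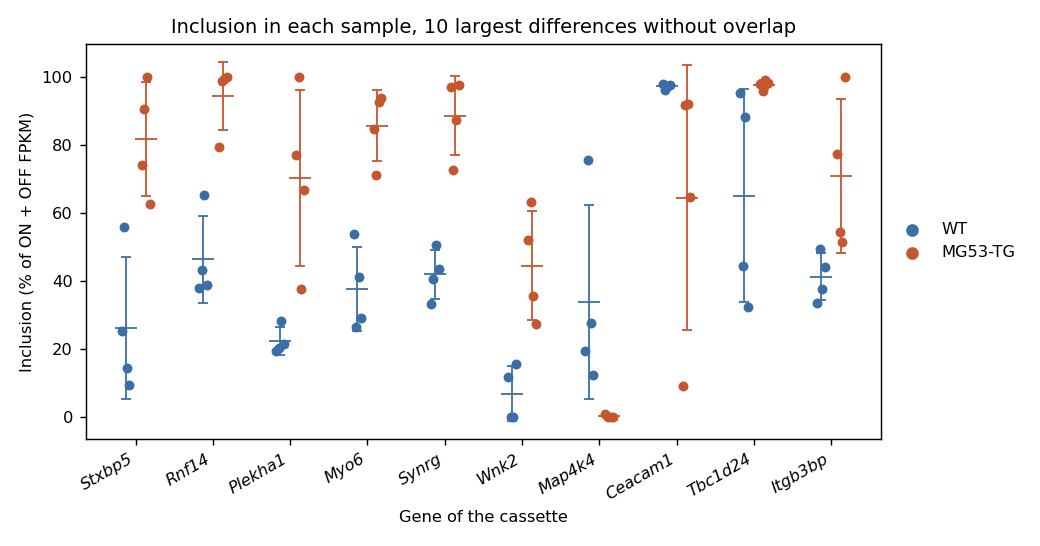
Inclusion (% of ON plus OFF FPKM) in each of 4 WT (blue) and 4 MG53-TG samples (orange) for the 10 cassettes with the largest difference among those whose groups do not overlap. Points are samples, and bars show the mean and SD, whose upper end passes 100% where the spread is wide. The 8 cassettes other than Map4k4 and Ceacam1 are higher in MG53-TG samples.

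Wnk2 belongs to the WNK kinases, which control cation-chloride cotransporters. Its 45 and 99 base exons were included at 11.8%, 0%, 0% and 15.5% in WT and at 52.0%, 63.2%, 35.4% and 27.4% in MG53-TG samples (6.84% ± 8.05 and 44.5% ± 16.1, SD, n = 4 each; limma adjusted p = 0.320). Its ON row stayed below 1 FPKM in every sample (log2 fold change 0.32, adjusted p = 0.415), and its OFF row fell from 4.96, 3.97, 5.99 and 5.07 to 0.437, 0.433, 1.28 and 2.05 FPKM (-1.61, limma adjusted p = 0.0280). That call held in 2 of the 8 fits without 1 sample, those without MG53-TG sample 2 or 4 (adjusted p 0.0255 to 0.0871), and Wnk2 passed the FPKM filter only through the WT group (mean sums 5.4 FPKM in WT and 1.72 FPKM in MG53-TG samples), so a lower level in the other group was partly fixed by the choice of members. Map4k4 encodes a Ste20 family kinase of the cytoskeleton and stress signalling. Its 162 and 231 base exons (chr1:40001430-40003987, + strand) were included at 19.5%, 75.4%, 27.6% and 12.3% in WT and at 0.753%, 0.0443%, 0.0247% and 0% in MG53-TG samples. Inclusion was therefore near 0 in all MG53-TG samples (difference -33.5 points, limma adjusted p = 0.331), and -19.6 points without WT sample 2. Its ON row fell from 3.55, 10.1, 4.22 and 1.93 to 0.0944, 0.00428, 0.00284 and 0 FPKM (log2 fold change -2.36, limma adjusted p = 0.00654), and its OFF row, at 3.27 to 14.7 and 8.97 to 12.5 FPKM, gave 0.15 (adjusted p = 0.892).

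**Figure D4:**
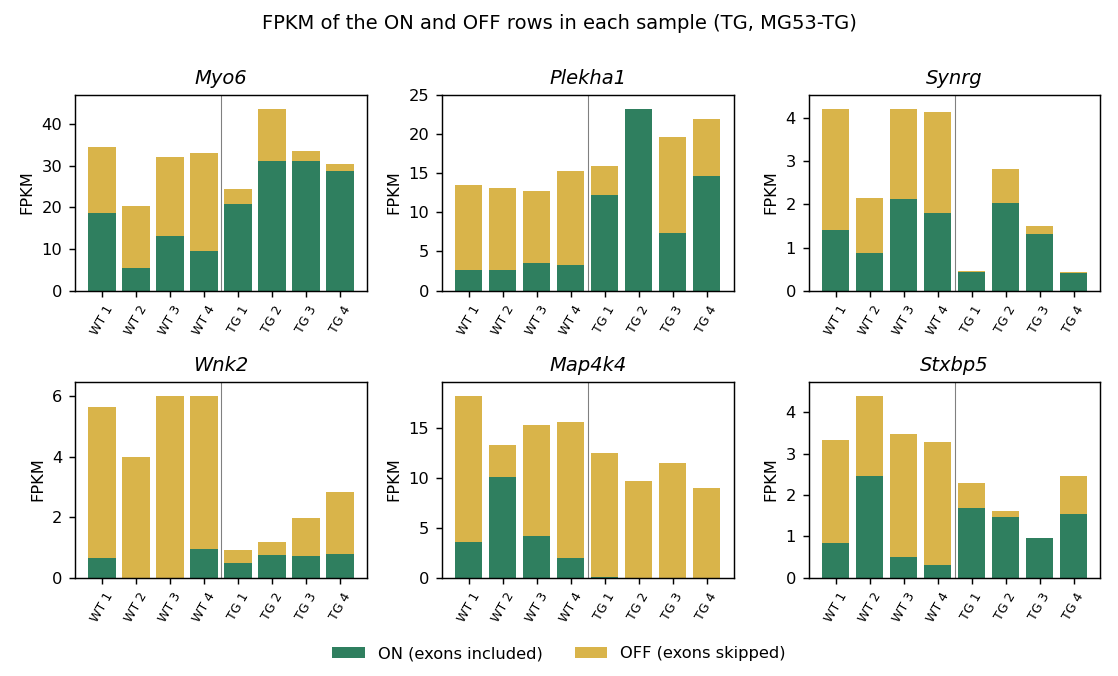
FPKM of the ON row (green, exons included) and the OFF row (yellow, exons skipped), stacked, in each WT and MG53-TG sample for 6 of the named cassettes. In Synrg, Wnk2 and Stxbp5 the yellow part is smaller in MG53-TG samples, in Plekha1 the green part is larger, and in Map4k4 the green part is nearly gone.

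The remaining 3 cassettes lie in genes of adhesion, the centromere and ubiquitination. Ceacam1 encodes an immunoglobulin family adhesion molecule, and its exons of 255 and 285 bases (chr7:25473798-25474804, - strand) were included at 97.9%, 96.1%, 97.4% and 97.7% in WT and at 9.15%, 91.7%, 92.0% and 64.7% in MG53-TG samples. The difference of -32.9 points (limma adjusted p = 0.647) was -14.5 points without MG53-TG sample 1. The ON row of Ceacam1 was called (limma adjusted p = 0.0255), in 5 of the 8 fits without 1 sample, but not without WT sample 1, 3 or 4. The files list the locus under Ceacam2, a closely similar gene with which reads may be shared, so these values are uncertain. Itgb3bp encodes a centromere protein, and its frame-shifting block was included at 33.6%, 49.2%, 37.7% and 44.1% in WT and at 77.3%, 54.4%, 51.4% and 100% in MG53-TG samples (difference 29.6 points, limma adjusted p = 0.637). It passed the filter only through the WT group (mean sums 4.32 and 1.86 FPKM), so the MG53-TG shares rest on low values. The gap between the highest WT and the lowest MG53-TG sample was small, and the difference was 17.6 points when single-exon forms were counted. Rnf14 encodes a RING-type E3 ligase, and its 76 and 173 base exons on chromosome 18 (38297500 to 38299926, + strand) are not coding. They were included at 38.0%, 43.1%, 65.3% and 38.9% in WT and at 79.4%, 98.8%, 99.4% and 100% in MG53-TG samples (46.3% ± 12.8 and 94.4% ± 10.01, SD, n = 4 each; limma adjusted p = 0.136), and without MG53-TG sample 1 the adjusted p was 0.0321. Both rows of Rnf14 were under 0.3 FPKM in the WT samples, so the WT shares rest on very low values, and the cassette passed the FPKM filter only through the MG53-TG group (mean sums 0.311 and 8.52 FPKM). A higher level in that group was thereby largely fixed by the choice of members. Its ON row rose from 0.123, 0.185, 0.0853 and 0.140 to 1.00, 9.20, 9.34 and 14.1 FPKM (log2 fold change 2.73, SE 0.59, adjusted p in limma = 0.0198). That call was lost without any one WT sample or MG53-TG sample 3 and kept without MG53-TG sample 1, 2 or 4 (adjusted p 0.000491 to 0.0570). Another Rnf14 member, whose inner exons also start at 38297500, had a called OFF row (limma adjusted p = 0.0298). The OFF call of that member held in 1 of the 8 fits without 1 sample, and its other values are not given here.

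Sec31a, whose protein forms the outer layer of COPII coats, was not among the 10. Its 78 and 39 base exons were included together at 50.7%, 74.5%, 87.9% and 83.4% in WT and at 97.4%, 91.8%, 91.9% and 93.6% in MG53-TG samples, without overlap (difference 19.6 points, limma adjusted p = 0.462). Without WT sample 1 the difference was 11.7 points (adjusted p = 0.458). The ON row rose from 16.0, 25.5, 17.1 and 23.8 to 34.2, 33.0, 35.2 and 43.8 FPKM (log2 fold change 0.82, limma adjusted p = 0.0185).

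The amounts of the ON and OFF transcripts were then compared as log2(FPKM + 1) with limma over the same 4496 cassettes, a scale that understates the change of low rows. The ON row was called for 107 members (20.4%), 39 higher and 68 lower in MG53-TG organoids, where 17.5% of all cassettes were called, 6.52% higher and 11.0% lower. The OFF row was called for 16 members (3.05%), 2 higher and 14 lower, against 5.69% of all cassettes, 1.89% higher and 3.80% lower. The sum of both rows was called for 161 (30.7%), 49 higher and 112 lower, against 30.9% of all, 9.16% higher and 21.7% lower. Some of these calls belong to members that passed the FPKM filter through 1 group only, whose change the filter partly fixed. The mean sum was under 2 FPKM in WT samples for 4 of the ON, 0 of the OFF and 7 of the summed calls, and in MG53-TG samples for 1, 4 and 9. The median log2 fold change of the members was -0.10 for ON, -0.01 for OFF and -0.23 for the sum, and that of all cassettes -0.10, -0.02 and -0.21. Both rows passed for 5 members, in Dmbt1, Lars, Mpzl1, Retsat and Smc1a, and none of the 5 moved in opposite directions. In the 8 fits without 1 sample their OFF calls held 0, 8, 1, 1 and 6 times and their ON calls 8, 3, 8, 8 and 6 times. How often both rows passed over all cassettes is not given, so the count of 5 and its directions are a description. Of the 50 members whose inclusion did not overlap, 23 had a called ON row and 7 a called OFF row. Inclusion is computed from these same rows, and no matching share of all cassettes is given, so these counts only describe the members. Without single samples the counts ran from 69 to 108 for ON, from 2 to 13 for OFF and from 101 to 164 for the sum, lowest without MG53-TG sample 3 for ON and the sum and without WT sample 4 for OFF.

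**Figure D5:**
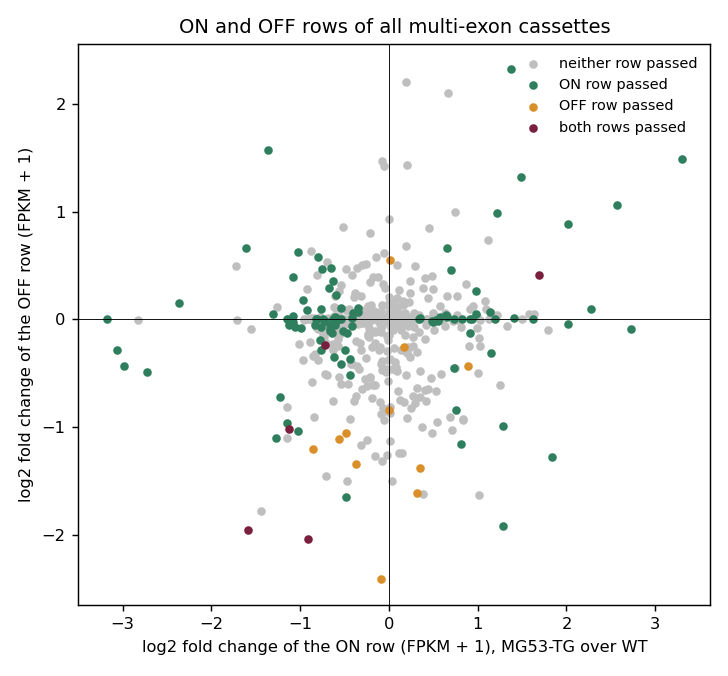
Log2 fold change of FPKM + 1 (MG53-TG over WT) of the OFF row (vertical axis) against that of the ON row (horizontal axis) for the 525 multi-exon cassettes. Green points passed limma's threshold for the ON row only, orange for the OFF row only and dark red for both, and the 5 dark red points lie in the lower left or upper right quadrant.

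The 5 largest changes of a row were all in ON rows, and in 4 of the 5, all but Rnf14, inclusion overlapped between the groups. Nr1i3 encodes the xenobiotic receptor CAR. The ON row of its 143 and 131 base exons (chr1:171214343-171215074, + strand) stood at 2.47, 1.75, 2.58 and 0.0413 FPKM in WT, against 13.0, 14.1, 27.8 and 53.6 FPKM in MG53-TG samples. This was a rise by 3.30 on the log2 scale (SE 0.56, adjusted p in limma = 0.00896). Inclusion of Nr1i3 was 99.7%, 66.4%, 100% and 2.88% in WT and 92.9%, 79.9%, 96.1% and 79.6% in MG53-TG samples, and the difference turned from 19.9 to -1.58 points without WT sample 4.

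Cd44, the hyaluronan receptor, is a crypt base and Wnt target gene known for its variable exons, and 2 of its cassettes are members. For the one ending in exons of 207 and 90 bases (chr2:102831330-102832572, - strand), the ON row was at 76.9, 82.6, 93.5 and 94.2 FPKM in WT, against 26.4, 17.1, 4.35 and 2.32 FPKM in MG53-TG samples (log2 fold change -3.17, SE 0.65, adjusted p in limma = 0.0164). Its OFF row never reached 0.01 FPKM, so inclusion ran from 99.9% to 100%. For the cassette of 126 and 120 bases (chr2:102837813-102839477) the ON row was at 18.5, 22.7, 23.2 and 23.9 FPKM in WT, against 6.82, 1.94, 1.03 and 0.503 FPKM in MG53-TG samples (log2 fold change -2.99, SE 0.48, adjusted p in limma = 0.00697). Its inclusion was 93.3%, 100%, 83.9% and 97.8% in WT and 79.6%, 74.4%, 90.6% and 76.8% in MG53-TG samples, where MG53-TG sample 3 overlapped the WT range (difference -13.4 points, limma adjusted p = 0.537). With 0.5 FPKM added to each row this difference was -22.8 points (adjusted p = 0.0850). Both Cd44 ON rows were lower in MG53-TG samples 3 and 4 than in 1 and 2, as was the stem cell marker Olfm4. Mboat1 encodes a lysophospholipid acyltransferase. The ON row of its 146 and 78 base exons (chr13:30194536-30195787, + strand) fell from 15.5, 15.9, 19.1 and 17.2 to 1.64, 1.94, 0.616 and 0.691 FPKM (log2 fold change -3.06, SE 0.23, adjusted p in limma = 0.000559), and since its mean sum was 17.3 FPKM in WT and 1.37 FPKM in MG53-TG samples it passed the FPKM filter only through the WT group. Its inclusion ran from 96.7% to 98.7% in WT and from 84.5% to 100% in MG53-TG samples, where samples 3 and 4 had no OFF row (difference -4.84 points, limma adjusted p = 0.940). This value depended on how low rows were treated. It was -11.7 points on a logit scale, which adds 0.1 FPKM to each row (limma adjusted p = 0.0484). It was -12.0 points with absent rows left missing (0.0624) and -23.1 points with 0.5 FPKM added to each row (0.000956). The difference was -2.06 points without MG53-TG sample 1, -2.87 points without sample 2 and -7.21 points without sample 3 or 4. Over the 19 alternatives the adjusted p ran from 0.000956 to 0.983.

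The most abundant members were mostly included, though inclusion fell as low as 89.2% in Lgals4 and 93.0% in Anxa4. The sum of ON and OFF was highest for Ldha, the lactate dehydrogenase subunit, Rpl13a, a ribosomal protein listed in the files under the overlapping Flt3l, Anxa4, a membrane-binding annexin, P4hb, protein disulfide isomerase, and Lgals4, galectin-4 of enterocytes. The Ldha ON row was at 542 to 587 FPKM in WT and 525 to 642 FPKM in MG53-TG samples (log2 fold change 0.00, limma adjusted p = 0.999), and that of Rpl13a gave -0.32 (adjusted p = 0.139). Anxa4 fell from 482, 561, 675 and 609 to 239, 358, 202 and 214 FPKM (log2 fold change -1.22, limma adjusted p = 0.00847) at an inclusion of 93.0% to 98.0%. P4hb, whose cassette spans 7 exons, had an ON row of 243 to 287 FPKM in WT and 360 to 494 FPKM in MG53-TG samples (0.66, adjusted p = 0.0190, kept in 5 of the 8 fits without 1 sample), at an inclusion between 98.3% and 98.8% in all 8 samples. Its OFF row gave the same log2 fold change of 0.66 (adjusted p = 0.0904). The Lgals4 ON row rose from 161, 117, 167 and 96.5 to 315, 421, 318 and 329 FPKM (log2 fold change 1.37, limma adjusted p = 0.00531). Its 33 and 39 base exons were included at 99.6% to 99.9% in WT and at 99.8%, 89.2%, 99.7% and 97.7% in MG53-TG samples, and the skipped form stood at 0.122 to 0.370 FPKM in WT but at 51.1 FPKM in sample 2 and 7.61 FPKM in sample 4 of MG53-TG, with 0.610 and 0.914 FPKM in samples 1 and 3.

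The longest members lay in Mgam, the brush border maltase-glucoamylase, with 2 runs of 46 exons and 2 of 23. Their exon lengths repeat along the gene, the runs are not annotated as such, and reads may be shared between near-identical exons, so these values are uncertain. Inclusion of the first run was 97.2% to 98.4% in WT and 97.1% to 98.3% in MG53-TG samples, and that of the 23 exon run starting at 40688012 on chromosome 6 was close to 100% except for 91.9% in WT sample 4 and 92.4% in MG53-TG sample 2. The second run of 46 exons was included at 99.2%, 99.2%, 100% and 96.4% in WT and at 100% in every MG53-TG sample after rounding (difference 1.28 points, limma adjusted p = 0.542), and the difference was 0.522 points without WT sample 4. The other run of 23 exons was included at 75.3% to 100% in WT and at 67.9% to 81.8% in MG53-TG samples, which overlapped.

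The members were also grouped by 5 lists of gene function. In none of the lists was a difference in inclusion called, and the median difference over all 4496 cassettes was -0.000956 points. Genes of adhesion, polarity and the cytoskeleton held 11 cassettes in 9 genes, with a median difference of -0.0415 points. One of the 11 did not overlap, Myo6, and 2 ON rows rose and 4 fell, where over all cassettes 7.92% did not overlap, 6.52% of ON rows rose and 11.0% fell. The 2 that rose belong to the overlapping Myo6 cassettes, and those that fell to the Cd44 pair, the microtubule-associated Map4 (-0.76, adjusted p = 0.0169) and the kinesin Kifc3 (-0.60, adjusted p = 0.0366), calls that held in 5 and 2 of the 8 fits without 1 sample. Genes of vesicle traffic held 11 cassettes in 10 genes, with a median of -1.23 points and a range from -52.4 in Dnm1l to 19.6 in Sec31a. One ON row of the traffic list rose, that of Sec31a, and 2 fell, of which the Dnm1l call (adjusted p = 0.0482) held in 1 of the 8 fits without 1 sample.

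RNA processing genes held 21 cassettes in 19 genes, the most of any list, with a median of 0.281 points. Of these 21, 1 had higher and 1 lower inclusion in MG53-TG samples without overlap, no ON row passed the test, and 1 OFF row fell, where over all cassettes 3.78% were higher and 4.14% lower without overlap and 3.80% of OFF rows fell. The OFF row was that of Esrp1, the epithelial splicing regulator. The Esrp1 call held in 2 of the 8 fits without 1 sample, those without MG53-TG sample 1 or 2 (adjusted p 0.0298 to 0.119). Its 110 and 151 base exons were included at 18.9%, 23.1%, 28.7% and 35.4% in WT and at 25.6%, 29.6%, 36.5% and 45.6% in MG53-TG samples, which overlapped (limma adjusted p = 0.738). The skipping form of Esrp1 went from 27.3, 24.6, 26.1 and 24.6 to 15.3, 16.4, 7.78 and 8.17 FPKM (log2 fold change -1.11, adjusted p = 0.0458). Prpf39, a U1 snRNP factor, showed the largest gain of the list, 36.5 points, from 3.00%, 4.56%, 6.33% and 24.5% to 76.7%, 21.8%, 66.4% and 19.6%, and WT sample 4 overlapped the MG53-TG range (adjusted p = 0.522). Hnrnpa1 showed the largest loss, -33.5 points, which came from WT samples 2 and 3 at 89.1% and 52.4%, while the other two WT samples were at 5.56% and 5.88% and the MG53-TG samples at 0.881% to 14.2% (adjusted p = 0.671). Without WT sample 2 the loss was -16.6 points.

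Metabolic genes held 7 cassettes in 6 genes, with a median of 0.219 points and 1 ON row that rose, where 6.52% of all ON rows rose. It was that of Dgat1, an enzyme of triglyceride synthesis, which went from 9.75 to 16.5 FPKM in WT to 54.5 to 91.6 FPKM in MG53-TG samples (log2 fold change 2.27, limma adjusted p = 0.00137). Dgat1 inclusion stayed between 96.0% and 100%. The list of stem cell, Wnt and proliferation genes held 3 cassettes, in Prom1, Tcf7l2 and E2f6, and none of their ON or OFF rows was called. Their median difference was -4.23 points, with a range from -6.85 to 18.6 points. Inclusion was lower in MG53-TG samples for Tcf7l2 and E2f6 and higher for Prom1. Prom1, a stem and progenitor membrane glycoprotein, was included at 33.8%, 38.0%, 36.6% and 44.6% in WT and at 87.3%, 42.1%, 46.8% and 51.1% in MG53-TG samples, where MG53-TG sample 2 lay below WT sample 4 (difference 18.6 points, limma adjusted p = 0.678). The difference rested on MG53-TG sample 1 and was 8.40 points without it (adjusted p = 0.537).

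The number of listed rows differed as well. The MSKIP_OFF type, all skipping forms of multi-exon cassettes before any filter, had 1744, 1671, 1619 and 1679 rows in WT samples 1 to 4 and 1571, 1565, 1557 and 1476 rows in MG53-TG samples 1 to 4. The MG53-TG samples all had fewer than the WT samples, with a p of 0.0286 in the exact permutation test (two-sided), or 0.0429 adjusted over 6 row types. The matching ON type overlapped, at 2842 to 2916 and 2780 to 2891 rows (exact permutation p = 0.257). The OFF type of single-exon cassettes was also fewer without overlap, at 8934 to 9287 and 8422 to 8839 rows (exact permutation p = 0.0286, adjusted 0.0429). The ratio of multi-exon OFF to ON rows was 0.562 to 0.598 in WT and 0.531 to 0.555 in MG53-TG samples without overlap (exact permutation p = 0.0286). For single-exon cassettes the ratio overlapped, at 0.905 to 0.923 and 0.878 to 0.910 (p = 0.143, exact permutation). The p-values of the ratios are unadjusted, and 0.0286 is the smallest that 70 relabellings allow. Whether the ratio differed between multi-exon and single-exon cassettes was not tested. Transcription start rows, which concern no cassette, were also fewer, at 23655 to 24108 in WT and 22805 to 23268 in MG53-TG samples. So were transcription end rows, at 13438 to 13710 and 13166 to 13421. The depth of the libraries, which bears on how many rows are listed, was not known, and its part was not tested. Among the 525 members the OFF row was absent in 16, 31, 30 and 31 cassettes in WT and in 36, 39, 45 and 70 cassettes in MG53-TG samples, and the ON row in 3 to 8 and 4 to 13. Since the members were chosen by how many samples list them, these absences are a description and add nothing to the comparison of row types.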

How the data were processed

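The authors trimmed the reads with cutadapt 1.9.1, mapped them with HISAT2 2.0.1 and deposited, per sample, FPKM values of transcript events (per the study's methods and the submitters' processing notes). HTSeq 0.6.1 is also named there. The tool that assembled transcripts and wrote the events is not given in the sources used here. The coordinates are those of GRCm38, and genes, coding status and sequences were taken from GENCODE M21 of that build by exact splice coordinates. For 35 of 525 cassettes (6.67%) that gene differed from the one named in the files.

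ON and OFF FPKM are estimates for whole transcripts, not junction counts. Cassette rows repeated within a sample (14157 rows, all with equal FPKM) were used once. ON rows with the same outer splice sites were summed. Inclusion (arcsine of its square root) and log2(FPKM + 1) of ON, OFF and their sum were compared with limma 3.58.1 in R 4.3.3 (two-sided, with a trend on expression, Benjamini-Hochberg over all 4496 multi-exon and single-exon cassettes, threshold 0.05). Single values were compared by an exact permutation test over 70 relabellings. The fits were tested on simulated data, but no outcome is given here, so this adds nothing to the results. Python 3.11.15, pandas 2.3.3 and scipy 1.17.1 served for the rest.

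The members and lists were chosen with earlier results of these data known. The cassettes named were the 10 with the largest difference without overlap, the 5 with the largest called ON or OFF change, the 5 with the highest FPKM and the 3 with most exons (the third tied with another Mgam run). Sec31a, Dnm1l and the examples from the lists were chosen after their values were seen. The alternatives were other scales, added FPKM, filters, treatments of absent rows, exon runs and single-exon forms, median-of-ratios scaling, sample weights, a replicate block and leaving out each sample. The logit scale also added 0.1 FPKM to each row, so it is not separate from the added FPKM. FPKM carries no counts, so no count test or counting interval was possible. Same-numbered samples did not deviate together (correlations of 0.0411, 0.0130, 0.0390 and -0.0198 over 4486 cassettes), so the numbers were not read as pairs.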

Additional observations from a re-analysis of the deposited data

Results flagged for a closer look

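Among 52 groups of 4 values searched for a sample far from the other members of its group, 5 were found, where chance alone gives about 2.6. In Rnf14, MG53-TG sample 1 had an inclusion of 79.4%, below the 98.8% to 100% of the other MG53-TG samples. In Map4k4, MG53-TG sample 1 was at 0.753%, above the other MG53-TG samples, which were all under 0.05%. In the Mgam run of 23 exons starting at 40688012, WT sample 4 at 91.9% and MG53-TG sample 2 at 92.4% each stood below the rest of their group, which was close to 100%. MG53-TG sample 4 listed 1476 skipping rows of multi-exon cassettes, fewer than the 1557 to 1571 of the other MG53-TG samples.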

How the results depend on the processing

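The count of cassettes with a called difference in inclusion, 0 of 525, became 2 on a logit scale with 0.1 FPKM added to each row (Mboat1 and Mpp1). It became 2 with 0.5 FPKM added to each row (Dgat1 and Mboat1) and 1 when the minimum mean was 0.5 FPKM. It ran from 0 to 2 without single samples (Rnf14 without MG53-TG sample 1, Sirt2 and Synrg without sample 2, Mff without sample 3). The count stayed at 0 under the other alternatives run. The count of ON rows, 107, ran from 69 to 108 without single samples and was lowest without MG53-TG sample 3 (69), WT sample 2 (71) and WT sample 4 (71). That of OFF rows, 16, was 9 with a pseudocount of 0.1 and ran from 2 to 13, lowest without WT sample 4, and it fell by more than 1.5 times without any one sample but MG53-TG sample 2. That of summed rows, 161, ran from 101 to 164, lowest without MG53-TG sample 3 (101), WT sample 4 (105), WT sample 1 (106) and WT sample 2 (107). With the replicate number as a block, although the samples share only a number, 0 cassettes were called for inclusion, 51 for ON, 0 for OFF and 126 for the sum. Under the block the ON rows of Nr1i3, Cd44 (207 and 90 bases) and Rnf14 had limma adjusted p of 0.0600, 0.0572 and 0.0552 at unchanged fold changes. Those of Myo6, P4hb, Map4, Kifc3, Dnm1l, Lars and Ceacam1 had 0.107, 0.0704, 0.0647, 0.101, 0.0895, 0.0519 and 0.0704. Without single samples the adjusted p of the Rnf14 ON row ran from 0.000491 to 0.0570. Of 425 alternative values of inclusion for the 22 named cassettes, 413 kept direction and side of the threshold. Mboat1 passed at -11.7 points (logit with 0.1 FPKM added, limma adjusted p = 0.0484) and -23.1 points (0.5 FPKM added, limma adjusted p = 0.000956). Without single samples Nr1i3 ran from -1.58 (without WT sample 4) to 30.8 points, the first Mgam run from -0.0727 to 0.360 points and the 23 exon run starting at 40688012 from -1.90 to 2.03 points. The first Mgam run turned to -0.225 points with exon runs taken alone, to -0.0727 without WT sample 4 and to -0.0321 without MG53-TG sample 3, and the 23 exon run to -1.90 without WT sample 4 and to -0.502 without MG53-TG sample 1, 3 or 4. The cause of these shifts was not tested. Shares of low rows are uncertain, and the unknown depth sets no stated limit on them.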
